A study of Sus scrofa with 20 samples.

Results

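The genes described here act in sperm formation, most of them in spermatids, the cells that reshape into sperm. TNP1, TNP2, PRM1 and PRM2 encode the small basic proteins of the spermatid nucleus, ACR, SPAM1, ZPBP and ACRBP encode proteins of the acrosome, and PGK2 encodes a phosphoglycerate kinase of germ cells. The members were chosen by gene symbol. A reference ID of the deposited counts was taken as a member when its RefSeq accession, without the version, belonged to one of the 9 listed pig genes. This resolved 5 genes out of 21755 reference IDs, namely TNP1 (XM_003133647.1), PGK2 (NM_213782.1), ACRBP (XM_003126533.1), SPAM1 (NM_214011.1) and ZPBP (NM_214106.1), each with 1 ID. PRM1, PRM2, TNP2 and ACR had no matched ID and were not analysed here, so of the nuclear proteins TNP1 alone was measured.

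In spermatogenesis, spermatogonia divide and enter meiosis, and the haploid spermatids that result then condense their nucleus and build an acrosome. Transition proteins such as TNP1 replace the histones of the spermatid before protamines take over, and the acrosome is a secretory cap over the nucleus that carries the enzymes and binding proteins used at the egg. Because these steps come last, transcripts of late spermatids are scarce in a testis that has not reached them. The members are not all limited to these last steps, since PGK2 is used by germ cells from meiosis on.

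RNA-Seq counts were available for the testis and the liver of boars with divergent androstenone, the testicular steroid that contributes to boar taint. The 20 samples, with 1 library each, were testis low androstenone, testis high androstenone, liver low androstenone and liver high androstenone, with 5 samples in each group. All boars were crosses of Duroc with F2 animals of Leicoma, German Landrace and Large White descent and are labelled as 116 days old. The groups were set by the androstenone measured in fat, and breed and age label were shared by all, so androstenone level was the only labelled difference within a tissue. The paper gives the age as an average over the boars. The age of each boar is therefore not known, and an age difference between boars or groups was not tested. Samples were not pooled, and each boar was sampled at a single time. The paper took testis and liver from the same 5 boars of each androstenone group. Whole pieces of tissue were sequenced, and for every value below fewer cells of a type cannot be told apart from less RNA per cell. The question was how far spermatogenesis had gone in these boars, and whether it differed between the tissues and between the androstenone groups.

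A testis library held 6161397 to 15975386 counts and a liver library 5796973 to 26783002. Levels are given as counts per 1000000 (CPM). The limit that a count of 0 allows, 3 counts, lay at 0.188 to 0.487 CPM for the testes and at 0.112 to 0.518 CPM for the livers, and covers counting error only. Of 10 hepatocyte IDs, albumin and apolipoproteins among them, 10 were called lower in testis, next to 32.2% of all IDs. Of 8 Leydig cell IDs, 4 were called higher in testis and 0 lower, next to 43.5% of all IDs called higher. The Leydig cell hormone INSL3 (NM_213970.1) had 243222 counts in the testes and 49 in the livers. CYB5A, on the same list, had 151842 and 128549, so not every Leydig ID told the tissues apart. A few libraries stood apart. Testis low replicate 2 was the lowest of the 10 testes for 24.7% and the highest for 23.4% of the 14349 IDs with a mean of at least 1 CPM. Liver low replicate 1 held more of TNP1, PGK2 and ACRBP than the other livers.

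The 5 members were all abundant in every testis and nearly absent from every liver. The lowest testis had 3224 counts of TNP1, 1281 of PGK2, 4500 of ACRBP, 222 of SPAM1 and 272 of ZPBP. Over the 10 livers together, 44 counts of TNP1, 8 of PGK2, 96 of ACRBP, 7 of SPAM1 and 3 of ZPBP were found. Every testis thus lay above every liver for each member, which was also so for 39.9% of the 19065 IDs tested between the tissues. Transcripts of spermatids were present in all 10 boars, of both androstenone groups.

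PGK2 had the largest estimated ratio between the tissues, though its counting interval overlapped those of TNP1, ZPBP and SPAM1. These intervals cover the counting error of pooled reads only and leave out the spread between livers, so they do not rank the genes. The pooled level of PGK2 was 422 CPM in testis and 0.0649 in liver, a ratio of 6505 with a 95% counting interval from 3301 to 15068. It was at 0 in 8 of the 10 livers, and 7 of its 8 liver counts came from liver low replicate 1. Without that library the ratio was 46182 and rested on 1 count. PGK2 is closely related to PGK1 (NM_001099932.1), the form of the enzyme used in other cells, which served as a check of read sharing and was chosen after its values were seen. PGK1 had between 191 and 5256 counts in each liver, 12820 in all, against the 8 of PGK2.

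TNP1 had pooled levels of 1183 CPM in testis and 0.357 in liver, with a ratio of 3311 (95% counting interval 2466 to 4557). Of its 44 liver counts, 30 were in liver low replicate 1 and 9 in liver high replicate 2, and 4 livers had none. Without liver low replicate 1 the ratio was 9235. ZPBP, a protein of the acrosome that binds the egg coat, had a ratio of 2255 (95% counting interval 771 to 10937), and no liver held more than 1 count. SPAM1, the sperm hyaluronidase, had a ratio of 1604 (95% counting interval 778 to 3990), with at most 2 counts in a liver. The liver levels of ZPBP and SPAM1 were under the limit of 3 counts in every library.

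ACRBP, which binds the precursor of acrosin and helps to pack it into the acrosome, was the one member with counts in all 10 livers. They numbered 22, 9, 7, 6 and 8 in low replicates 1 to 5 and 16, 1, 17, 7 and 3 in high replicates 1 to 5. In 8 livers this was more than 3 counts. The ratio of its pooled levels was 1335 (95% counting interval 1093 to 1649), with 1041 CPM in testis and 0.779 in liver. Unlike TNP1 and PGK2, 77.1% of its liver counts came from livers other than low replicate 1, and without this library the ratio was 1537.

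**Figure D1:**
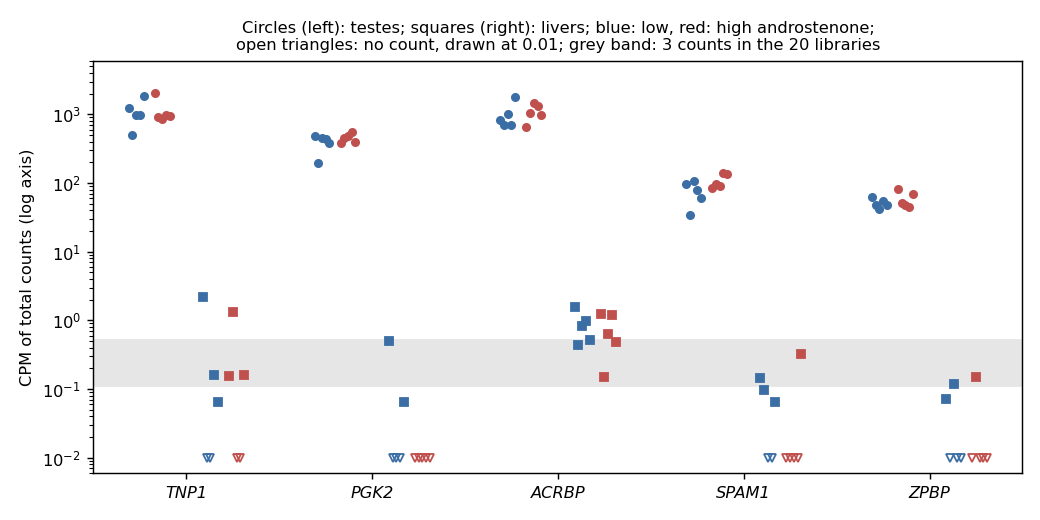
CPM of total counts (log axis) of the 5 members in each of the 20 libraries, with testes as circles and livers as squares, blue for low and red for high androstenone. Open triangles mark libraries with no count, drawn at 0.01, and the grey band spans 3 counts in these libraries (0.112 to 0.518 CPM). All testes lie above all livers for each gene, and most liver values of SPAM1, ZPBP and PGK2 are at or under the band.

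In edgeR's quasi-likelihood test over all 20 samples, the 5 members were called higher in testis, with an adjusted p of 5.62e-13 for TNP1 and smaller values for the others. An ID was called when its Benjamini-Hochberg adjusted p was under 0.05 and its fold at least 1.5. The fitted log2 fold changes, testis over liver, were 12.67 (standard error 0.51) for PGK2, 10.61 (0.71) for TNP1, 9.73 (0.36) for ZPBP, 9.51 (0.39) for SPAM1 and 9.36 (0.37) for ACRBP, and those near 0 in liver are not exact sizes. Of all IDs, 75.7% were called, 43.5% as higher in testis, and 3.19% had a log2 fold change at least as large as that of ACRBP. The median of all IDs was 0.31 with TMM scaling and 1.28 with total counts only, and the share of calls that were higher in testis was 57.4% and 76.0%, respectively.

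Liver low replicate 1 contained all 5 members, of which ZPBP and SPAM1 had 1 and 2 counts. Its level was 0.193% of the mean of the testes for TNP1, 0.156% for SPAM1, 0.132% for ZPBP, 0.151% for ACRBP and 0.120% for PGK2. Liver high replicate 2 had 0.119% of the testis mean for TNP1 and 0.0141% for ACRBP, with 1 count of ZPBP and none of PGK2 or SPAM1. The summed CPM of 19 further acrosome IDs was 17.6 in liver low replicate 1, 13.5 in liver high replicate 2 and between 3.45 and 7.54 in the other 8 livers, and 9 of the 19 were highest in liver low replicate 1. GOPC and ACRV1 were left out of this sum because they had many counts in all livers. Whether testis material entered these libraries was not tested.

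Between the androstenone groups of testis, 0 of the 5 members were called, and the groups overlapped for each. Over all 18340 IDs tested in testis, 0.0% were called by edgeR's quasi-likelihood test, 1740 had an unadjusted p under 0.05 (9.49%), and in 1.79% the groups did not overlap. DESeq2 called 52 IDs and 0 members. No member had an unadjusted p under 0.05 in edgeR's main fit of the 10 testes. In edgeR's alternative fits, SPAM1 had an unadjusted p of 0.0333 without low replicate 3, with an adjusted p of 0.443. With the replicate number as a block it had an unadjusted p of 0.0365 and an adjusted p of 0.417. The fitted change was above 0 for 4 of the 5 members, against 48.0% of all IDs. Without low replicate 2 it was above 0 for 3 of the 5, against 48.8% of all IDs.

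TNP1 is described first, as the member of the nucleus. In the low androstenone group it reached 1259.5, 481, 958, 995 and 1998 CPM in replicates 1 to 5. In the high androstenone group the values were 2077, 867, 822, 1003 and 906 CPM. Each group thus held 1 boar far above the rest, and the other 8 boars were at 1259.5 or below. The means were 1138 ± 557 CPM (SD, n = 5) in the low and 1135 ± 530.5 CPM (SD, n = 5) in the high group. The log2 change of TNP1, high over low, was -0.0041 with a standard error of 0.33 (edgeR, adjusted p = 0.998), and its 95% interval ran from -0.72 to 0.71. The exact two-sided permutation test on log2(CPM + 0.5) gave p = 0.960, where 5 boars against 5 allow no p below 0.00794. Without high replicate 1 the log2 change was -0.33, and without low replicate 5 it was 0.32.

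PGK2 allows germ cells to run glycolysis once the X-linked PGK1 gene is silenced in meiosis. It was at 477, 191, 438, 446 and 421 CPM in low replicates 1 to 5 and at 398, 427, 467, 566 and 379 CPM in high replicates 1 to 5. Apart from low replicate 2, which had less than any other testis, the boars of both groups lay close together. The means of 395 ± 116 CPM (SD, n = 5) in the low and 447 ± 74.1 CPM (SD, n = 5) in the high group correspond to a log2 change of 0.18, with a standard error of 0.22 (edgeR, adjusted p = 0.815), and an exact permutation p of 0.532. The change was 0.02 without low replicate 2, and its 95% interval with all boars ran from -0.30 to 0.66.

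ACRBP had 832, 672, 983, 711 and 1958 CPM in low replicates 1 to 5. It had 674, 1005, 1404, 1385 and 957 CPM in high replicates 1 to 5. Low replicate 5 was the highest, while low replicate 2 and high replicate 1 were the lowest testes and close to each other. The groups averaged 1031 ± 532 CPM (SD, n = 5, low) and 1085 ± 309.5 CPM (SD, n = 5, high). The log2 change of ACRBP was 0.07 with a standard error of 0.29 (edgeR, adjusted p = 0.956), a 95% interval from -0.55 to 0.70 and an exact permutation p of 0.683. Without low replicate 5 it was 0.46, and without low replicate 2 it was -0.043.

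SPAM1 had the largest estimate of the 5. It was at 97.6, 33.1, 106, 79.6 and 65.9 CPM in low replicates 1 to 5 and at 87.5, 91.1, 86.9, 143 and 132 CPM in high replicates 1 to 5. High replicates 4 and 5 were above all other testes, and the other 3 high boars were within the range of the low group. The means were 76.4 ± 28.7 CPM (SD, n = 5) in the low and 108 ± 27.2 CPM (SD, n = 5) in the high group. The log2 change of SPAM1 was 0.50 with a standard error of 0.26 (edgeR, adjusted p = 0.559), a 95% interval from -0.06 to 1.06 and an exact permutation p of 0.119. It lay between 0.32, without low replicate 2, and 0.65, without low replicate 3.

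ZPBP varied least in its highest over its lowest testis. Low replicates 1 to 5 had 62.2, 45.8, 40.1, 56.1 and 52.6 CPM, and high replicates 1 to 5 had 82.9, 49.1, 46.8, 45.7 and 67.5 CPM. High replicates 1 and 5 were above the low group, and the rest were mixed. The means of 51.4 ± 8.62 CPM (SD, n = 5, low) and 58.4 ± 16.3 CPM (SD, n = 5, high) correspond to a log2 change of 0.19, with a standard error of 0.20 (edgeR, adjusted p = 0.780), and an exact permutation p of 0.452. The change was 0.04 without high replicate 1, its highest boar.

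**Figure D2:**
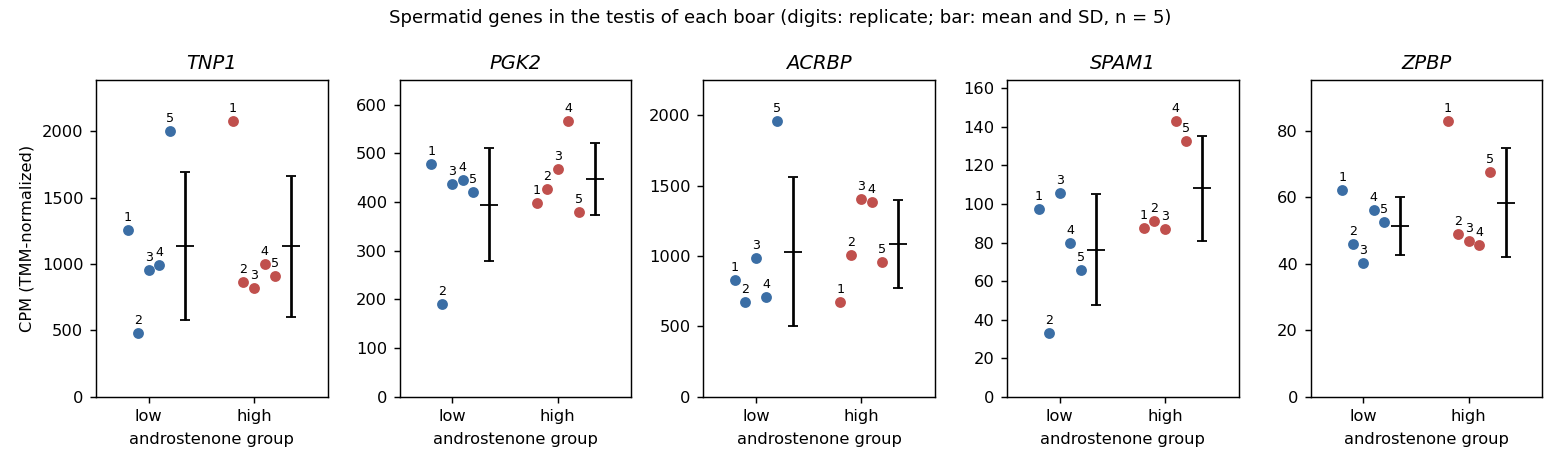
TMM-normalized CPM of each member in the 5 low (blue) and 5 high (red) androstenone testes, with the replicate number beside each point and the mean with its SD as a bar (n = 5). The groups overlap in all 5 panels, TNP1 has 1 boar far above the rest in each group (1998 and 2077 CPM), and low replicate 2 is the lowest point for TNP1, PGK2, ACRBP and SPAM1.

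The intervals limit how large a group difference can have been missed. For TNP1, PGK2, ACRBP and ZPBP the 95% interval of the fold change, high over low, stayed within 2-fold in either direction, as it did for 61.5% of the IDs tested. The bounds were 0.609 and 1.63 for TNP1, 0.815 and 1.58 for PGK2, 0.684 and 1.62 for ACRBP, and 0.850 and 1.53 for ZPBP. For SPAM1 they were 0.958 and 2.09. A level 1.5-fold higher in high androstenone testis was inside all 5 intervals.

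**Figure D3:**
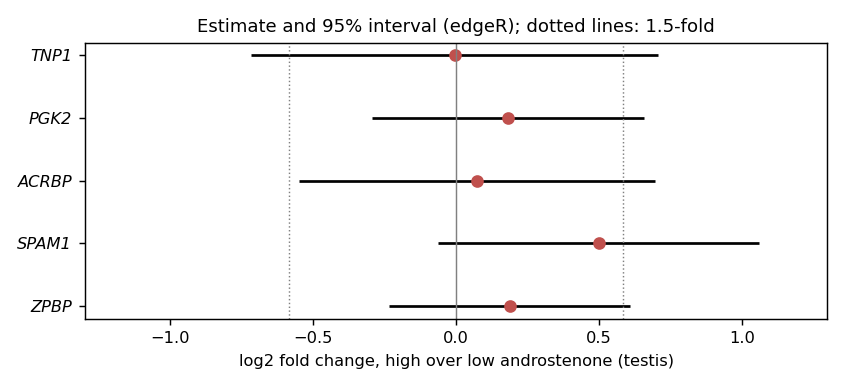
Log2 fold change (x axis, high over low androstenone in testis) of each member as a point with its 95% interval from edgeR, with dotted lines at 1.5-fold in either direction. All 5 intervals include 0, and that of SPAM1 reaches highest, from -0.06 to 1.06.

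In liver, TNP1 and ACRBP had the 10 summed counts needed to enter the fit, while PGK2, SPAM1 and ZPBP did not. TNP1 had 32 counts in low and 12 in high androstenone livers, a log2 change of -0.79 with a standard error of 1.29 (edgeR, adjusted p = 0.9998) that became 2.43 without liver low replicate 1. ACRBP had 52 and 44 counts, a log2 change of -0.13 with a standard error of 0.51 (edgeR, adjusted p = 0.9998), which was 0.22 without that library. No member was called, and 0.0% of the 15855 IDs tested in liver were called by edgeR's test, with an unadjusted p under 0.05 for 465 (2.93%). DESeq2 also called 0.

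Of the group differences, that of SPAM1 was the largest, at 1.41-fold. The spread among single boars is described without a test. The highest over the lowest boar is never smaller than a fold between group means, so it is not weighed against the group differences. The highest testis exceeded the lowest by 4.32 times for TNP1, 4.32 times for SPAM1, 2.96 times for PGK2, 2.91 times for ACRBP and 2.07 times for ZPBP. Among the 8270 IDs with a mean testis level of at least 10 CPM, the median ratio was 2.12, and 93.7% had a smaller ratio than TNP1 and SPAM1. Testis low replicate 2 was the lowest for 4 of the 5 members, all but ZPBP. Without this boar, the ratio fell to 2.53 for TNP1, 2.17 for SPAM1 and 1.49 for PGK2, and stayed at 2.90 for ACRBP and 2.07 for ZPBP.

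Most other genes of the acrosome and spermatid nucleus lists were low in the same boar. Of 22 acrosome IDs that are not members, 21 (95.5%) were lowest in testis low replicate 2, where 24.7% of all IDs were. These included CRISP2 (NM_001128437.1), a protein of the acrosome and the tail, at 967 CPM there and up to 4294 CPM in high replicate 4. CALR3 (XM_003123473.1), a chaperone of spermatids, was at 670 CPM there and up to 1772 CPM. ACTRT2 (XM_003127512.1), an actin-related protein of the sperm head, was at 604 CPM there and up to 1937 CPM. The summed level of the 22 was 6430 CPM in low replicate 2 and between 12331 and 18482 CPM in the other 9 testes. Of 4 IDs with a role in the spermatid nucleus, 3 were lowest in that boar, among them CREM (XM_003130810.1), an activator of spermatid genes. The spermatid metabolism list was mixed, since 2 of its 5 IDs were lowest and 1 was highest in that boar.

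Genes of spermatogonia and somatic cells had another order, while those of meiosis varied less over the testes. The summed level of 8 meiosis IDs varied 1.37 times over the testes. It was 1095 CPM in low replicate 2, again the lowest, 1183 CPM in the next and up to 1504 CPM in high replicate 1. Of the 8 IDs, 3 were lowest in low replicate 2, where 24.7% of all IDs were. MAEL was at 64.0 CPM there (mean of the testes 113), PTTG1 at 218 (mean 304) and PIWIL1 at 78.1 (mean 98.9). The sum also held SPO11, which had many liver counts. The summed level of the spermatogonia IDs was highest in low replicate 2, at 208 CPM, with 95.7 to 161 CPM in the others. Of the 4 such IDs with a mean of at least 1 CPM, 3 were highest in that boar, where 23.4% of all IDs were. DMRT1 (NM_214111.1), a transcription factor of spermatogonia and Sertoli cells, was at 95.1 CPM there and at 45.3 CPM in low replicate 5, its lowest testis. UCHL1 (NM_213763.2), a marker of spermatogonia in pig testis that was named after its values were seen, was at 91.5 CPM there and as low as 30.6 CPM in high replicate 1.

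The Sertoli cell IDs were also highest in low replicate 2 as a sum, at 30698 CPM, against 5717 to 21864 CPM in the other testes. Nearly all of this was CLU (NM_213971.1), the secreted chaperone clusterin, which ranged from 5610 CPM in high replicate 1 to 30410 CPM in low replicate 2. Of the 9 Sertoli IDs, 3 were highest in that boar. Leydig cell IDs did not stand out there, at 3348 CPM in a range of 1647 to 7244 CPM. Low replicate 2 was thus low in most spermatid transcripts, though less so in ZPBP, and high in CLU, DMRT1 and UCHL1. Its summed meiosis level was little below that of the next boar, though 3 of the 8 meiosis IDs were lowest there. The part of these other transcripts in the low spermatid values was not tested.

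**Figure D4:**
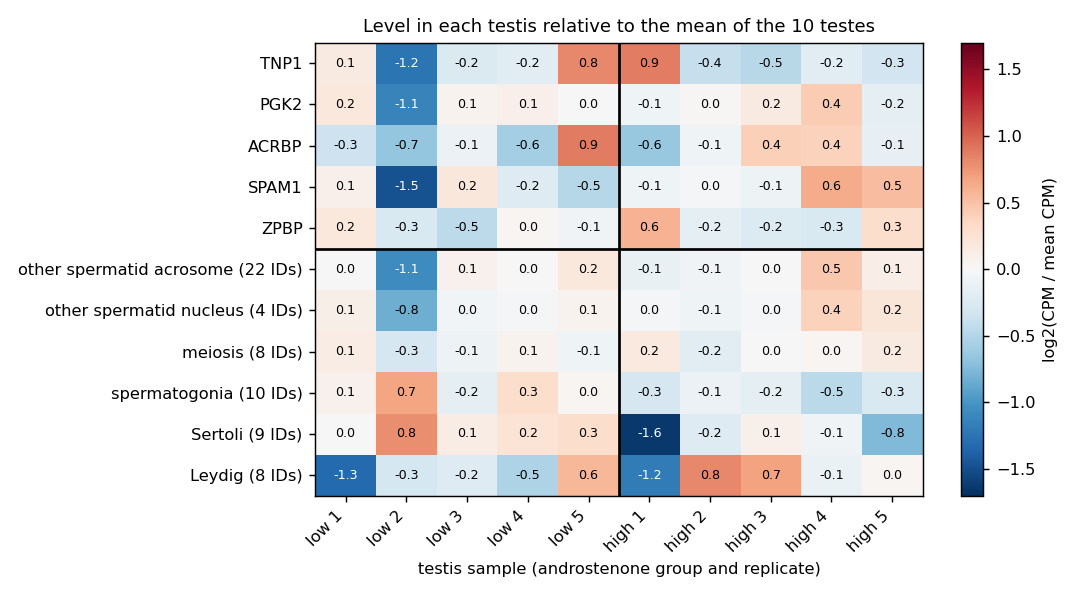
Log2 ratio of the level in each testis (columns, by androstenone group and replicate) to the mean of the 10 testes, for the 5 members (upper rows) and for the summed CPM of 6 gene lists (lower rows, with all their IDs). In column low 2 the spermatid rows other than ZPBP are blue and the spermatogonia and Sertoli rows red. ZPBP (-0.26) and the meiosis row (-0.29) are both pale there, and the meiosis row stays pale in all columns.

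The 5 members did not follow a single order among the boars. TNP1 and ZPBP were highest in high replicate 1, where ACRBP ranked 9 of 10. ACRBP was highest in low replicate 5, where TNP1 ranked 2 and SPAM1 ranked 9. SPAM1 and PGK2 were highest in high replicate 4, where ZPBP ranked 9. Over the 10 testes, which share library and scaling, Pearson's r of log2(CPM + 0.5) ran from -0.39 for ZPBP with ACRBP to 0.83 for SPAM1 with PGK2. Without low replicate 2 that of SPAM1 with PGK2 was 0.32, and that of TNP1 with PGK2 went from 0.51 to -0.26. Without low replicate 5 and high replicate 1, the testes with the most TNP1, they were 0.87 and 0.89, and that of TNP1 with SPAM1 went from 0.31 to 0.81. These correlations are descriptions without a test.

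Ratios of counts within a library do not depend on its scaling and showed the same boars. TNP1 had 5.21 counts for each count of PGK2 in high replicate 1 and 4.75 in low replicate 5, while the other 8 testes had between 1.76 and 2.64. ACRBP had 4.65 counts for each count of PGK2 in low replicate 5 and between 1.60 and 3.51 in the others. TNP1 against ACRBP ranged from 0.586 in high replicate 3 to 3.08 in high replicate 1. The androstenone groups overlapped in each of these ratios. PGK2 against PGK1 was 1.19 in low replicate 2, from 3.26 to 5.89 in 8 testes and 8.50 in high replicate 1. Low replicate 2, where PGK2 was lowest, was also the testis with the highest level of PGK1, at 160.1 CPM, and high replicate 1 the one with the lowest, at 46.9 CPM.

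**Figure D5:**
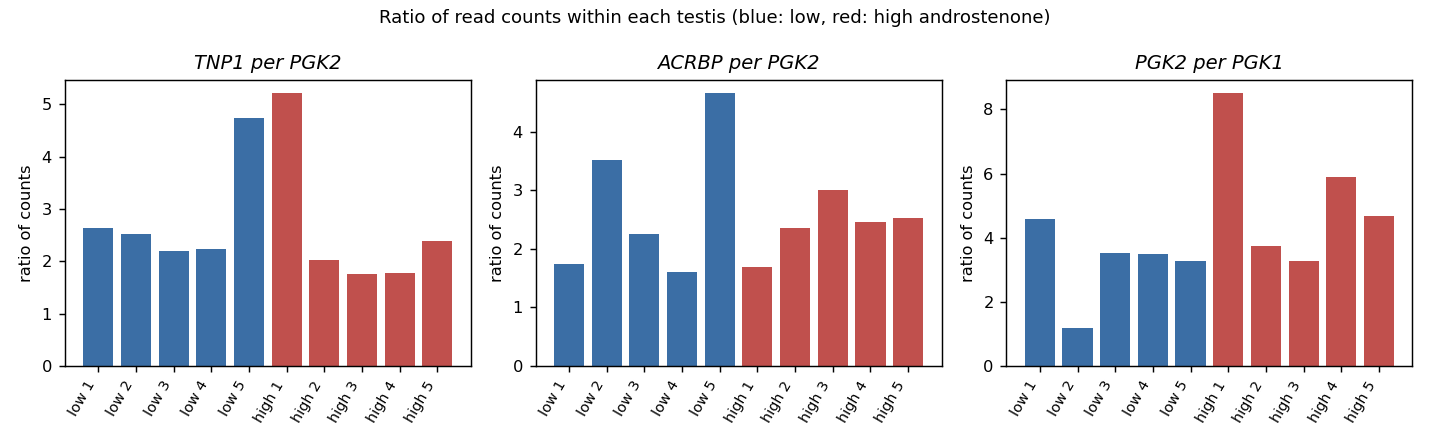
Bars give the ratio of read counts of 2 genes within each testis (x axis: androstenone group and replicate, blue low, red high; y axis from 0), for TNP1 per PGK2, ACRBP per PGK2 and PGK2 per PGK1. TNP1 per PGK2 is raised in low 5 and high 1 (4.75 and 5.21), ACRBP per PGK2 in low 5 (4.65), and PGK2 per PGK1 is lowest in low 2 (1.19).

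In the wider lists, edgeR called 0 IDs between the androstenone groups of testis, and DESeq2 called 2 as lower in high androstenone. The first was UCHL1, with a log2 change of -0.95 (DESeq2, adjusted p = 0.00856, and edgeR, adjusted p = 0.302). The other was CD3E (NM_214227.1), a CD3 subunit of the T cell receptor complex, with -1.43 (DESeq2, adjusted p = 0.0161, and edgeR, adjusted p = 0.320). Both are named after their values were seen. Of the 22 other acrosome IDs, 0 were called and 22 had a change above 0, against 48.0% of all IDs, with a median log2 change of 0.21 and a range from 0.03 to 0.48. Without low replicate 2, which is in the low group, 16 of the 22 were above 0, against 48.8% of all IDs, with a median of 0.06. SPA17 and GOPC have 2 IDs each that can share reads, so they are not independent. The 22 were also measured in the same 10 testes, and 21 were lowest in low replicate 2. Their changes are thus not 22 separate observations of the groups. Among 4 nuclear IDs the median was 0.06, and among 8 meiosis IDs 0.12, and 0 were called in each. The median log2 change was -0.32 over 9 spermatogonia IDs, -0.38 over 9 Sertoli IDs and 0.37 over 8 Leydig IDs, again with 0 called by edgeR, against a median of -0.02 over all IDs. Without low replicate 2 the medians were -0.04, -0.31 and 0.35. For 5 IDs of spermatid metabolism the median was 0.05, for 6 of blood, immune cells and vessels -0.90 and for 10 of hepatocytes 1.00, with 0 called by edgeR. Without low replicate 2 the medians of the nuclear and the metabolism IDs were -0.03 and -0.09. The hepatocyte median was 0.26 without high replicate 1, which was the highest testis for 5 of the 8 hepatocyte IDs with a mean of at least 1 CPM. Unadjusted p-values under 0.05 numbered 1 among the acrosome, 2 among the spermatogonia, 1 among the Sertoli, 3 among the Leydig, 4 among the blood, immune and vessel and 1 among the hepatocyte IDs, and 0 among the rest.

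The most abundant ID of each further list gave these log2 changes, high over low, in edgeR's fit of testis. PGAM2 (NM_001134968.1), a glycolytic mutase abundant in sperm, had 0.05 (adjusted p = 0.963), and SYCP3 (XM_003126677.1), a part of the meiotic chromosome axis, had 0.15 (adjusted p = 0.804). DMRT1 had -0.11 (adjusted p = 0.868), CLU had -0.72 (adjusted p = 0.472) and INSL3 had 0.23 (adjusted p = 0.869). The other cell types in the piece were represented by ACTA2 (NM_001164650.1), the actin of smooth muscle and peritubular cells, with -0.99 (adjusted p = 0.441), and by APOA1 (NM_214398.1), with -0.64 (adjusted p = 0.611), the lowest change of the hepatocyte list, in which 7 of 10 IDs were above 0. None of these passed edgeR's test. The summed CPM of 6 blood, immune and vessel IDs ranged from 152 to 1018 in testis, and that of 10 hepatocyte IDs from 50.5 to 167, against 112159 to 207591 in the livers.

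Between the tissues, the other acrosome IDs mostly behaved as the members did. Of the 22, 20 were called higher in testis and 0 lower, next to the 43.5% of all IDs called higher in testis. The 2 IDs of GOPC, a Golgi protein of many cells, were not called. Of the 8 meiosis IDs 7, and of the 4 nuclear IDs 4, were called higher in testis, while of the 5 metabolism IDs 2 were higher and 1 was lower.

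Among 4539 other IDs with a symbol and a mean testis level of at least 1 CPM, those most like the mean of the members over the 10 testes were TFAP2A (XM_001924622.2), CARHSP1 (XM_003124608.1), MEA1 (NM_001110429.1), ZFPL1 (XM_003122545.1) and SMCP (NM_001008685.1). The measure was Pearson's r with the mean of the standardized log2(CPM + 0.5) of the members, which was 0.98, 0.97, 0.96, 0.95 and 0.95. They were picked as the highest of all candidates, so no test was made. The mean of the members was far lower in testis low replicate 2 than in any other testis. These correlations therefore rest largely on that boar, and they were not computed without it. TFAP2A had the lowest mean level of these IDs, and its lowest testis level lay within the range of the limit of 3 counts. SMCP, a protein of the sperm mitochondrial sheath, went from 124 to 442 CPM in testis and had 12 counts in all livers. MEA1 went from 1917 to 3735 CPM and had 12034 liver counts, so likeness of pattern in testis did not mean restriction to testis.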

How the data were processed

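Testis and liver libraries were sequenced as single reads, 1 library per sample. The authors processed reads with CASAVA 1.7, aligned them with BWA to RefSeq and UniGene transcripts of an earlier pig assembly and deposited raw read counts per reference ID. The treatment of reads matching several transcripts is not given in the sources used here. Of the 21785 lines per sample, 10 IDs stood 4 times with equal counts and were taken once. Symbols were paired with 6654 IDs through a RefSeq table of Sscrofa11.1 (version dropped), so the counted sequence may differ from the current one. Transcript lengths were not used, so levels are compared within a gene.

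Counts were scaled by TMM and tested with edgeR 4.0.16 in R 4.3.3 (quasi-likelihood, at least 10 summed counts, Benjamini-Hochberg adjustment over all IDs). Alternatives included DESeq2 1.42.0, RLE scaling, other filters, a replicate block and leaving out each sample. Testis CPM are TMM-scaled, except in comparisons with liver, where CPM of total counts are given. Ratios of pooled counts carry exact binomial (Clopper-Pearson) 95% intervals, which leave out the spread between samples. The p-values measure the spread between samples, which the methods describe as 5 pigs per group. Both tissues came from these same pigs, but the labels do not say which testis and liver belong together. The main fit between the tissues therefore treated all 20 samples as independent, and its p-values leave this pairing out. The members and lists were chosen with earlier results of these data known. Named were all 5 resolved members, the 3 most abundant IDs of the other spermatid lists, the most abundant of each further list and the 5 IDs most like the members. CREM, GOPC, ACRV1, SPA17, UCHL1, CD3E, PGK1, MAEL, PTTG1 and PIWIL1 were added after their values were seen.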

Additional observations from a re-analysis of the deposited data

Results flagged for a closer look

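In groups of 5, a sample was singled out when its gap to the nearest other sample exceeded 0.710 of the range of the group (Dixon's criterion at 95%). This was applied to 19 groups, and 8 had such a sample. Chance flags about 1 in 20 groups of normally distributed values, a rate that does not hold for groups of near-zero counts, where a single library with counts always meets the criterion, so no rate is read from the 5 in liver. In testis, TNP1 was at 2077 CPM in high replicate 1, against 822 to 1003 CPM in the other high boars. ACRBP was at 1958 CPM in low replicate 5, against 672 to 983 CPM in the other low boars. PGK2 was at 191 CPM in low replicate 2, against 421 to 477 CPM in the other low boars.

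In liver, low replicate 1 was singled out with 2.09 CPM of TNP1 (30 counts) and 0.487 CPM of PGK2 (7 counts), where the other low livers had at most 0.137 and 0.0797 CPM. High replicate 2 was singled out with 1.37 CPM of TNP1 (9 counts) and 0.152 CPM of ZPBP (1 count), and high replicate 5 with 0.282 CPM of SPAM1 (2 counts). The ZPBP and SPAM1 values are under the limit of 3 counts.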

How the results depend on the processing

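No member was called between the androstenone groups under any alternative run in testis or liver, and the 5 members stayed called higher in testis than in liver under each. Over all IDs in testis, DESeq2 called 52 where edgeR called 0, and leaving out each sample gave 0 to 2 calls, the 2 without low replicate 5. The log2 change of TNP1 in testis, near 0, changed sign with RLE scaling (0.014), DESeq2 (0.014), 1 fit of all 20 samples (0.014), removal of the germ cell IDs from the library size (0.0056) and the replicate block (0.051), and leaving out each sample moved it from -0.33 to 0.32. That of ACRBP moved from -0.043 to 0.46 in testis and, in liver, between -0.31 and 0.22, and that of TNP1 in liver from -2.71 (without high replicate 2) to 2.43 (without low replicate 1). An alternative chosen after seeing the data, which left out testis low replicate 2, lowered the ratio of the highest to the lowest testis to 2.17 for SPAM1 and 1.49 for PGK2. With the filter of at least 1 CPM in 5 samples, no member was left in liver. The replicate block gave SPAM1 a log2 change of 0.57 in testis (unadjusted p = 0.0365, adjusted p = 0.417, edgeR) and gave 0 calls in testis and liver and 14324 between the tissues, against 14436 without it. The values of the other lists without testis low replicate 2 were also computed after seeing the data. Deviations of same-numbered samples correlated with r from -0.05 to 0.14 between the testis groups and from -0.31 to 0.45 between the liver groups. The best match was the own number in 2 and 1 of 5. High and low boars are different animals, so these values cannot show the pairing of tissues. Between testis and liver r ran from -0.04 to 0.34 in the high and from -0.02 to 0.12 in the low group. There the own number was the best match in 2 of 5 in each group. Correlations this low across tissues do not decide whether equal numbers mean the same boar. The labels do not say, so the main fits did not take the numbers as pairs. Depth limits the liver values of SPAM1 and ZPBP, which lie under 3 counts in each library.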

Other observations

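The trace of testis transcripts in liver low replicate 1 included INSL3, but not every Leydig cell gene. Of the 49 liver counts of INSL3, 39 were in this library, which is 0.127% of the testis mean, and the next highest liver had 5. For CYP17A1, 5 of 10 liver counts were in it, at 0.0884% of the testis mean, and another liver reached 0.0787%. LHCGR had 0 of its 4 liver counts there, and NR5A1 had 0 in all livers. The other Leydig IDs had at least 619 liver counts each. Of the 47 liver counts of CRISP2, 39 were in liver low replicate 1, at 0.0946% of the testis mean. The other acrosome IDs varied. For DPY19L2 and CCIN this library held 4 of 4 and 13 of 15 liver counts, but for SPACA1 and CALR3 2 of 21 and 40 of 347. DPY19L2, CCIN, SPACA1, CYP17A1, LHCGR and NR5A1 were chosen after their values were seen.

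Some IDs of genes known for the germ line had many liver counts. ACRV1 (NM_001195320.1), an acrosomal vesicle protein, had 7367 counts in the livers against 64312 in the testes, and the highest liver other than low replicate 1 reached 21.8% of the testis mean. SPO11 (NM_001105313.1), the enzyme that makes the DNA breaks of meiosis, had 8481 liver and 17173 testis counts, with a log2 change between the tissues of 0.11 (edgeR, adjusted p = 0.672). Both were chosen after their values were seen, and what these reference sequences contain was not examined.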
